A study of Mus musculus with 8 samples.

Results

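The genes described here carry the signal of insulin, the insulin-like growth factors (IGFs) and leptin into the cell: the receptors Insr, Igf1r and Lepr, the adaptors Irs1 and Irs2, the kinase subunits Pik3ca and Pik3r1, and the IGF binding proteins Igfbp4, Igfbp5 and Igfbp7. They are a list of 10 genes named by function, of 17097 genes in the table. A gene was measured where a probe set, a group of short probes for one transcript, names it alone. That was so for 8 of the 10, with 29 probe sets in all, and Irs2 and Igfbp7 were not analysed here. The brightest probe set, by its mean over the arrays compared, stands for its gene, and every other one is given beside it.

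The cells were dermal fibroblasts of female mice that received either a normal diet (ND) or a high fat diet (HFD) for 6 months, starting at 2 months of age. Strain and diet composition are not given in the sources used here. Skin without its subdermis was digested with collagenase, and cells positive for Pdgfra and CD34 and negative for CD45, CD117, CD24, CD31 and EpCam were sorted. RNA of 10000 cells per sample was amplified over 20 cycles, labelled with biotin and hybridised to arrays, 4 for each diet, to learn what effect the diet has on the transcripts of these cells. ND 4 carries the label "Excluded" for its quality control status, with no reason stated, and the comparison is of HFD 1 to 4 with ND 1, 2 and 3. Specimens were treated as separate mice, and if some shared an animal the p-values would cover technical spread only.

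Insulin and IGF-1 bind related receptor tyrosine kinases, which phosphorylate the insulin receptor substrates. These recruit phosphoinositide 3-kinase, made of a catalytic subunit such as p110 alpha (Pik3ca) and a regulatory subunit such as p85 alpha (Pik3r1), and its lipid product activates the kinase Akt. IGF binding proteins hold IGFs outside the cell and set how much reaches the receptor. Leptin, a hormone of fat cells, acts through Lepr and the kinase Jak2 on STAT proteins. In fibroblasts IGF signalling is known for its part in growth, survival and matrix production.

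Of the 8 measured members 1 fell in HFD, Pik3ca, 0 rose, and 7 did not pass the test (limma, Benjamini-Hochberg adjusted p under 0.05 over all genes). Over all 17097 genes 5.35% passed in either direction, 2.62% higher and 2.73% lower in HFD. At an unadjusted p under 0.05 there were 3 members, Pik3ca, Igfbp4 and Igfbp5, where 22.1% of all genes were. The changes, HFD minus ND on the log2 scale, ran from −0.41 to 0.29, with 4 positive and 4 negative. Their median was 0.04 (0.02 over all genes) and their median size 0.17 (0.09 over all genes). The members were brighter than most genes, with a median level of 9.56 against 6.77. In a fit without the dimmer genes, 1387 of 8554 passed. The diets had no overlapping arrays in Pik3ca and Igfbp5, 2 of 8 members, and in 17.9% of all genes. The call for Pik3ca did not survive the loss of any single array, as given with its values.

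The promoters are shown for the pair of PI3K subunits and for the 2 measured binding proteins. Each is the 250 bases before the RefSeq start of transcription in GRCm38.p6, read 5′ to 3′ on the gene's strand, with the GC box GGGCGG or its reverse complement CCGCCC in capitals. They lie at chr3:32396815-32397064 (plus strand) for Pik3ca, chr13:101768218-101768467 (minus strand) for Pik3r1, chr11:99040994-99041243 (plus strand) for Igfbp4 and chr1:72874866-72875115 (minus strand) for Igfbp5.
Pik3ca: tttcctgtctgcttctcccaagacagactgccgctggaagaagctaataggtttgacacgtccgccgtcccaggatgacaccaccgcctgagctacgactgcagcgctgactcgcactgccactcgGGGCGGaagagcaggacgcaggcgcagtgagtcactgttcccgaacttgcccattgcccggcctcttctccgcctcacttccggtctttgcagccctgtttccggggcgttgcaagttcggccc
Pik3r1: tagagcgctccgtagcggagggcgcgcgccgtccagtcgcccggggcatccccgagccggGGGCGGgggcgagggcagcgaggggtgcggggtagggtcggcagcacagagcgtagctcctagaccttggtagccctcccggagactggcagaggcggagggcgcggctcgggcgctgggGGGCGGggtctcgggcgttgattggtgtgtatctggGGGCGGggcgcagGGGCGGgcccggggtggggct
Igfbp4: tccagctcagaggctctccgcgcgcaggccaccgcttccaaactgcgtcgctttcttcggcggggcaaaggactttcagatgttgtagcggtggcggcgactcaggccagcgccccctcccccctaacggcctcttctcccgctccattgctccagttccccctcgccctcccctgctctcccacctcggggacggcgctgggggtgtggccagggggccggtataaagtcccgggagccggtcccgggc
Igfbp5: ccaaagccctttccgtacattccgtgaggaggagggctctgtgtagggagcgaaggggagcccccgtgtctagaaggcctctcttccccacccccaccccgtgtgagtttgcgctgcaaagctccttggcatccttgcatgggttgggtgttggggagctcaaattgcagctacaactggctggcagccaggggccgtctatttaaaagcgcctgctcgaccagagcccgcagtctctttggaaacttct

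RefSeq windows were found for 9 of the 10 listed genes, 11 windows in all, since Lepr and Pik3r1 have a pair of starts each. The Pik3ca window holds 1 GC box and the Pik3r1 window shown holds 4, while those of Igfbp4 and Igfbp5 hold 0. A GC box was present in 7 of the 11 windows and in 32.7% of 32851 promoter windows of the same length. The GC share was 61.6% for Pik3ca, 76.4% for the Pik3r1 window shown, 69.2% for Igfbp4 and 58.8% for Igfbp5, against a median of 52.4%. The other Pik3r1 start had a GC share of 42.4% and 0 GC boxes. Neither the STAT element TTCNNNGAA (7.02% of windows) nor the FoxO element TGTTTAC (3.17%) was found in any of the 11 windows on either strand. The E box CACGTG (6.02%) was found in 2, those of Irs1 and Irs2. These letters describe the windows and say nothing on whether a factor binds there.

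Among the receptors, Insr (probe set 1450225_PM_at) encodes the insulin receptor. Its log2 expression was 8.35, 8.49 and 8.15 in ND 1, 2 and 3, and 8.27, 8.37, 8.82 and 8.55 in HFD 1 to 4. The groups overlapped, with ND 3 lowest and HFD 3 highest. The means were 8.33 ± 0.17 (SD, n = 3) and 8.50 ± 0.24 (SD, n = 4), a difference of 0.17 with a 95% interval of −0.13 to 0.48 (adjusted p = 0.526). Without HFD 3 the difference was 0.067 and without ND 3 it was 0.082, and the mean of its probe sets gave 0.038. Its 2 dimmer probe sets differed by 0.14 and −0.20, so the sign was not shared.

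Igf1r (1452108_PM_at), the receptor for IGF-1, had log2 expression of 9.57, 9.52 and 9.81 in ND and 9.33, 9.55, 9.51 and 9.45 in HFD. ND 3 was the highest array, HFD 1 the lowest, and the groups overlapped. The difference was −0.17, with an interval of −0.39 to 0.04 (adjusted p = 0.342), and without ND 3 it was −0.085 (adjusted p = 0.764). Its other 3 probe sets differed by 0.08, −0.04 and 0.47. The last of these, the dimmest with a mean of 8.67, was at 8.35, 8.43 and 8.42 in ND and 8.52, 8.91, 9.05 and 9.02 in HFD, so that every HFD array lay above every ND array (adjusted p over all probe sets = 0.0615). Probe sets of Igf1r therefore give no common direction.

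Lepr (1425875_PM_a_at), the leptin receptor, showed the widest spread among HFD mice of the 8 members. It was at 10.13, 9.63 and 9.96 in ND and 9.96, 9.80, 9.43 and 10.33 in HFD on the log2 scale. HFD 3 was the lowest of all arrays and HFD 4 the highest, so the ND arrays lay inside the HFD range. The difference was −0.03, with an interval of −0.45 to 0.39 (adjusted p = 0.958). It turned to 0.085 without ND 1 and 0.123 without HFD 3, and was −0.18 without HFD 4. Among its other probe sets the differences were 0.28, 0.17 and −0.37, and the probe set with a mean of 6.88 was also highest in HFD 4 (8.01). Leprot, which shares a promoter region with Lepr and encodes another membrane protein, differed by 0.11 (adjusted p = 0.459).

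**Figure D1:**
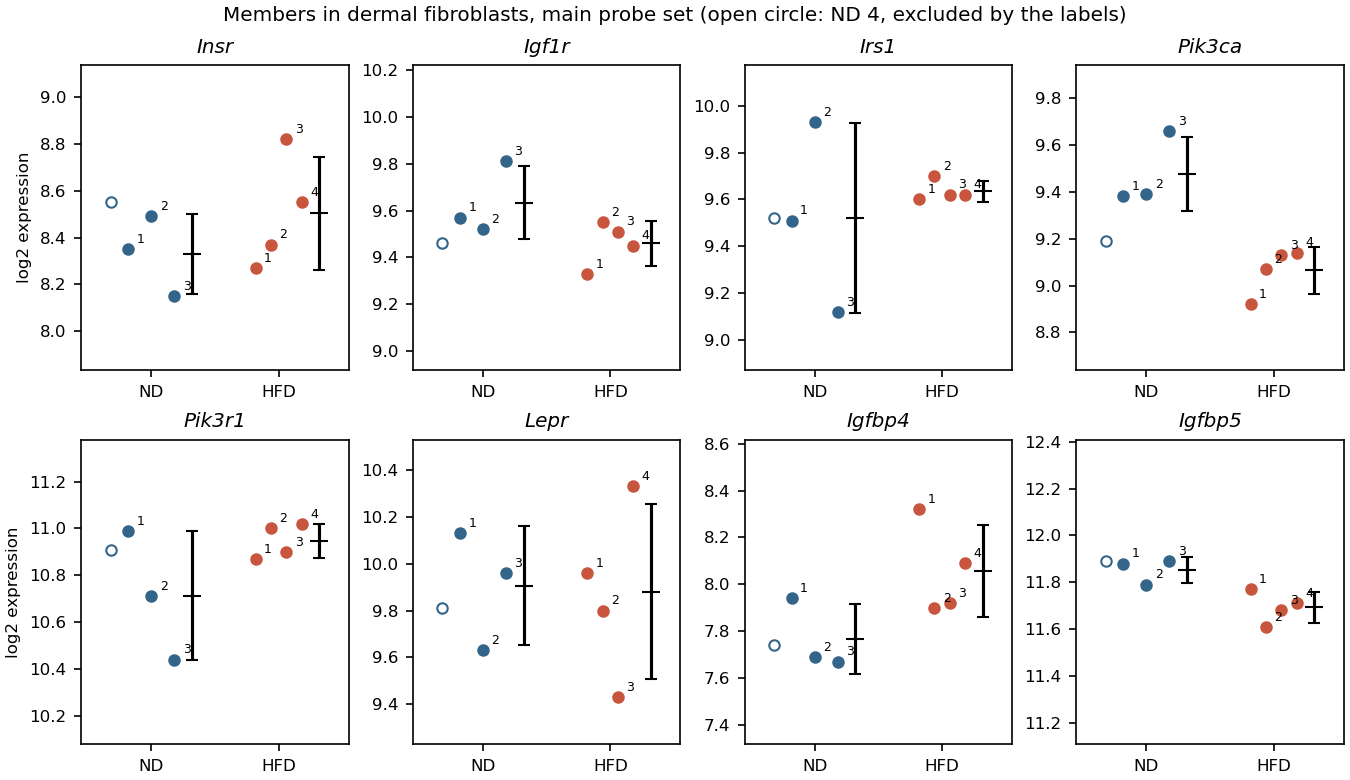
Log2 expression of the main probe set of each of the 8 measured members in every array, with ND 1 to 3 and HFD 1 to 4 as numbered points, the mean ± SD as a bar beside them and the excluded ND 4 as an open circle. The vertical axes span the same number of log2 units, and ND and HFD points separate in Pik3ca (9.38 to 9.66 against 8.92 to 9.14) and Igfbp5 (11.79 to 11.89 against 11.61 to 11.77) but overlap in the other 6 panels.

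Irs1 (1423104_PM_at), the adaptor that links both receptors to PI3K, had 1 probe set. It was at 9.51, 9.93 and 9.12 in ND and at 9.60, 9.70, 9.62 and 9.62 in HFD. The 4 HFD arrays lay within the ND range and close together, with an SD of 0.04 in HFD and 0.41 in ND, where the median gene had 0.10 in both. The difference in spread was not tested. The means differed by 0.12, with an interval of −0.23 to 0.46 (adjusted p = 0.736), and without ND 3 the difference turned to −0.085 (adjusted p = 0.818), while without ND 2 it was 0.32 (adjusted p = 0.162).

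Pik3ca (1460326_PM_at), the catalytic subunit that makes the lipid signal, was at 9.38, 9.39 and 9.66 in ND 1, 2 and 3 and at 8.92, 9.07, 9.13 and 9.14 in HFD 1 to 4. Every HFD array was below every ND array, with ND 3 the highest. The mean fell from 9.48 ± 0.16 (SD, n = 3) to 9.06 ± 0.10 (SD, n = 4), a difference of −0.41 (standard error 0.10, interval −0.64 to −0.19, adjusted p = 0.0452). That is 1.33-fold lower, and its p ranked 790 among 17097 genes. The excluded array ND 4 was at 9.19, between the groups and nearer to HFD.

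The 5 dimmer Pik3ca probe sets, not used to make that call, had the same sign. The next one, with a mean of 6.98, was at 7.01, 7.22 and 7.16 in ND and 6.93, 6.82, 6.84 and 6.91 in HFD (difference −0.26, adjusted p over all probe sets = 0.108). Of the 6 probe sets, 3 passed adjustment over all 28898 single-gene probe sets, where 4.75% passed. Their differences were −0.41, −0.46 and −0.57, at means of 9.24, 6.92 and 5.50. Another dim one, with a mean of 5.88, also differed by −0.57 but did not pass (adjusted p = 0.0778). In 5 of the 6 the diets did not overlap, as in 18.1% of all single-gene probe sets. The exception had a mean of 5.97 and differed by −0.03 (adjusted p = 0.906). Probe sets of a gene read the same RNA samples and are not replicates. All 6 stayed lower in HFD without ND 1, ND 3, HFD 2, HFD 3 or HFD 4, and 5 did without ND 2, without HFD 1 or with ND 4 added.

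The Pik3ca call had a narrow margin. Leaving out any 1 of the 7 arrays gave an adjusted p between 0.0539 (without ND 1) and 0.171 (without ND 3), with changes from −0.46 to −0.32, and adding ND 4 gave −0.34 (adjusted p = 0.187). The mean of its 6 probe sets gave −0.38 (adjusted p = 0.0554). The call was also lost with a measure of RNA quality as a covariate (−0.20, adjusted p = 0.999) or the mean of keratinocyte markers (−0.48, adjusted p = 0.103), both described with the checks of the cells.

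Pik3r1 (1451737_PM_at), the regulatory subunit that holds and stabilises p110, was at 10.99, 10.71 and 10.44 in ND and 10.87, 11.00, 10.90 and 11.02 in HFD. The HFD arrays lay close together, while ND 3 was the lowest of all and ND 1 lay within the HFD range. The difference was 0.23, with an interval of −0.02 to 0.49 (adjusted p = 0.271). Without ND 3 it was 0.10 (adjusted p = 0.722), and without ND 1 it was 0.37 (adjusted p = 0.0592). The next 2 probe sets were higher in HFD by 0.33 and 0.32 with no overlap (adjusted p over all probe sets = 0.179 and 0.111). The dimmest, with a mean of 7.62, had the opposite sign: it was at 7.82, 7.92 and 7.89 in ND and 7.65, 7.56, 7.28 and 7.24 in HFD, again with no overlap (−0.44, adjusted p = 0.0549). For Pik3r1 the sign therefore depended on the probe set, and none of the 4 passed.

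**Figure D2:**
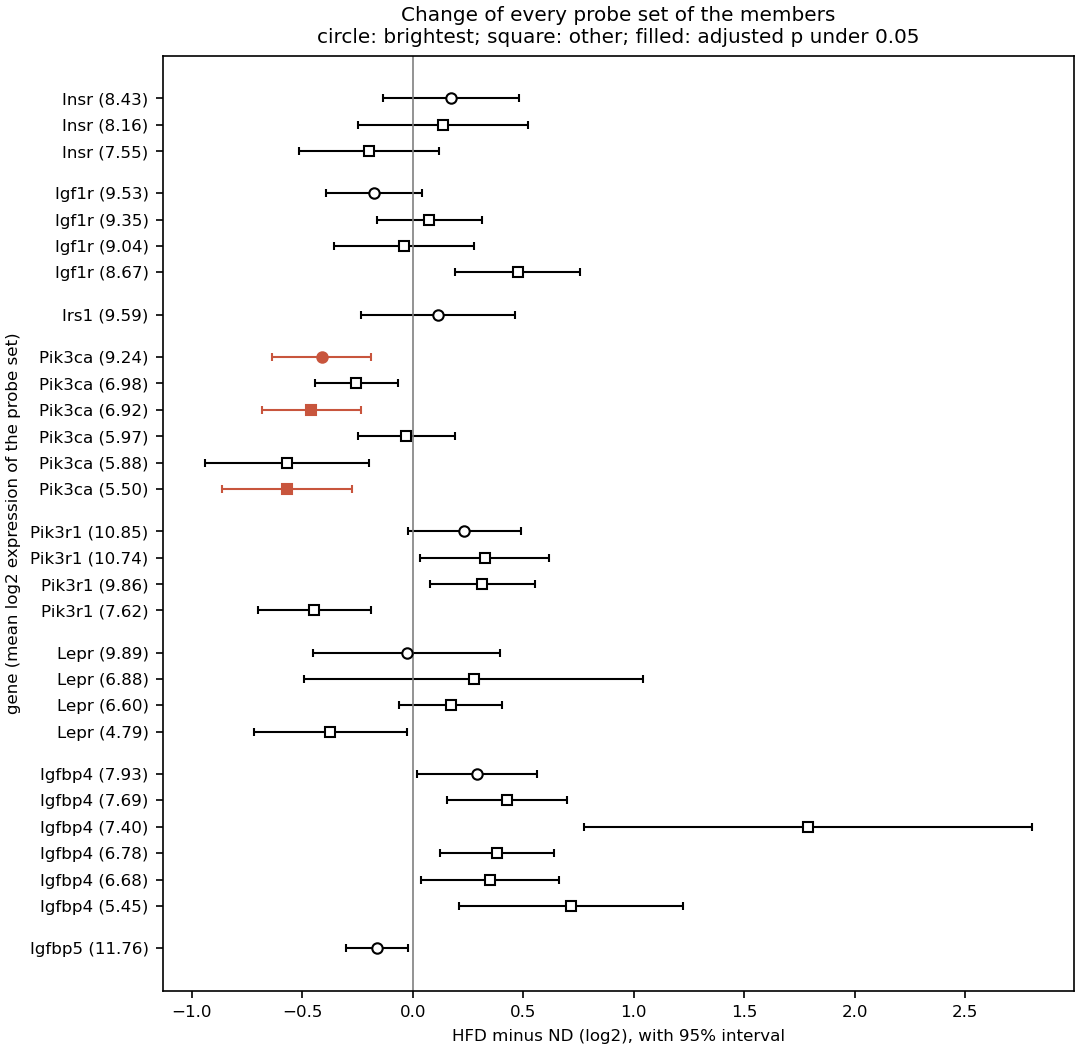
HFD minus ND on the log2 scale, with 95% intervals from limma, for all 29 probe sets of the 8 members, ordered by gene and then by brightness (mean log2 expression in parentheses). Circles are the main probe sets, squares the others, and filled symbols passed at an adjusted p under 0.05. All 6 Pik3ca probe sets lie below 0 and all 6 of Igfbp4 above it, while Insr, Igf1r, Pik3r1 and Lepr lie on both sides.

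Of the IGF binding proteins, Igfbp4 is an inhibitor of IGF action that the protease Pappa cleaves. Its main probe set (1421991_PM_a_at) was at 7.94, 7.69 and 7.67 in ND and 8.32, 7.90, 7.92 and 8.09 in HFD. HFD 1 was the highest, and ND 1 lay just above HFD 2 and 3, so the groups overlapped. The difference was 0.29, with an interval of 0.02 to 0.56, which did not pass (unadjusted p = 0.0375, adjusted p = 0.194).

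All 6 Igfbp4 probe sets were higher in HFD, by 0.29 to 1.79 on the log2 scale, and 0 of them passed the adjusted threshold. Each had an unadjusted p of 0.0388 or less in the limma fit of all probe sets. By main probe set, 22.1% of all genes had an unadjusted p under 0.05. The 6 read the same RNA samples and are not replicates. Their differences stayed positive when any 1 array was left out, when ND 4 was added and under both other scalings. The largest difference came from probe set 1437405_PM_a_at, at 7.41, 5.84 and 5.88 in ND 1, 2 and 3 and at 9.14, 7.98, 7.21 and 8.33 in HFD 1 to 4. ND 2 and ND 3 were far below all other arrays and ND 1 lay among the HFD values (difference 1.79, standard error 0.46, adjusted p = 0.0527). The dimmest, with a mean of 5.45, was at 5.18, 4.99 and 4.95 in ND and 6.50, 5.55, 5.28 and 5.70 in HFD, without overlap (0.72, adjusted p = 0.0957). Across the 6, the highest array was HFD 1 or HFD 4 and the lowest ND 2 or ND 3.

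Igfbp5 (1422313_PM_a_at), a binding protein that also attaches to matrix, had 1 probe set. It was at 11.88, 11.79 and 11.89 in ND and 11.77, 11.61, 11.68 and 11.71 in HFD. Every HFD array was below every ND array, by as little as 0.02 between HFD 1 and ND 2. The difference was −0.16, with an interval of −0.30 to −0.02, and did not pass (adjusted p = 0.164). ND 4, at 11.89, lay with the other ND arrays.

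**Figure D3:**
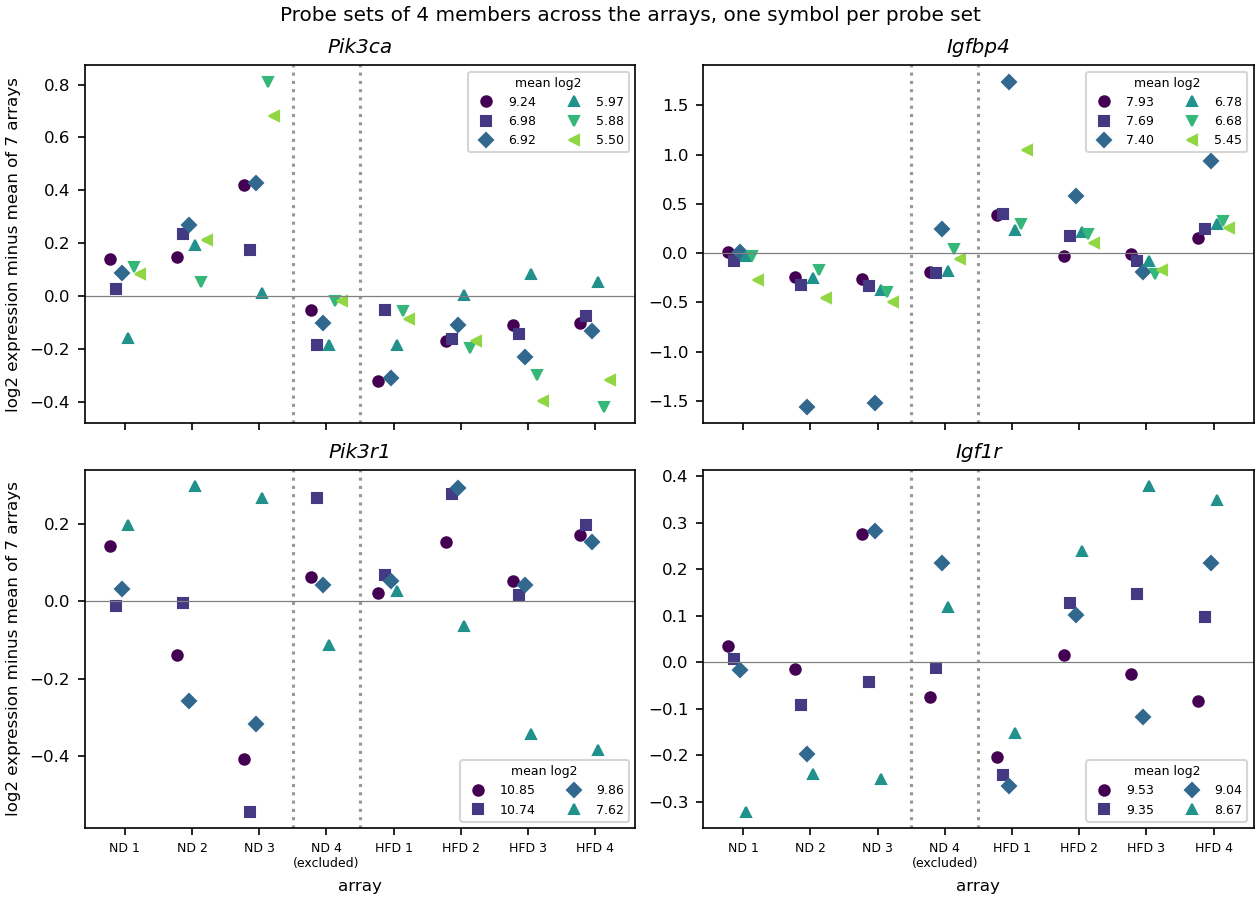
Log2 expression minus the mean of the 7 arrays compared, for each probe set of Pik3ca, Igfbp4, Pik3r1 and Igf1r (symbols, labelled by mean log2 expression) in every array, with dotted lines around the excluded ND 4. The Pik3ca symbols are mostly above 0 in ND and below it in HFD, those of Igfbp4 show the reverse, and in Pik3r1 and Igf1r the dimmest probe set lies opposite to the brightest.

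ND 3 was the highest or the lowest of the 7 arrays in 7 of the 8 members, highest in 3 and lowest in 4, and it held that place in 44.8% of all genes, against 24.5% to 30.7% for each other array. The excluded ND 4 was nearer the HFD mean than the ND mean in 60.7% of all genes and in 5 of 8 members. Among the 914 genes past the threshold, which were chosen without ND 4, it was nearer the HFD mean in 82.3%. The same held for all 6 of the genes past the threshold among the members and the other pathway genes described next.

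The other genes of the pathway were read from the same fit, as a list of 77 genes by role. Of 71 measured, 1 rose, 4 fell and 66 did not pass, against 5.35% of all genes past the threshold, and the diets did not overlap in 17 of the 71 (17.9% of all genes). The median change was 0.00 and the median size 0.13, at a median level of 8.49 (6.77 over all genes).

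Among the ligands, 0 of 4 measured passed by their main probe sets. Igf2 was at 11.10, 10.93 and 11.41 in ND and 10.66, 10.89, 10.52 and 10.85 in HFD, without overlap (−0.42, adjusted p = 0.078), and its other probe set differed by −0.49 (adjusted p over all probe sets = 0.0671). Igf1 gave a divided picture. Its brightest probe set was at 10.79, 10.58 and 10.63 in ND and 10.74, 10.74, 10.77 and 10.81 in HFD (0.10, adjusted p = 0.495). Its other 3 were lower in HFD by 0.52, 0.38 and 0.51. The first of these was at 10.13, 9.99 and 10.34 in ND and 9.82, 9.70, 9.54 and 9.47 in HFD and passed over all probe sets (adjusted p = 0.0347). Lep, whose product fat cells secrete, was dim, with means of 4.75 for ND and 4.72 for HFD (adjusted p = 0.832).

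Of 3 other receptor genes and relatives 0 passed. Leprotl1, a relative of Leprot, differed by −0.25 (adjusted p = 0.184), with a dimmer probe set lower by 0.45 on the log2 scale (adjusted p over all probe sets = 0.0392), and Insrr, the orphan relative of the insulin receptor, by 0.15 (adjusted p = 0.358). Of 10 adaptors 0 passed and 8 were positive. Gab2, a docking protein that binds PI3K, differed by 0.42 (adjusted p = 0.0704), and the dimmest of its 3 probe sets was higher by 0.61 (adjusted p over all probe sets = 0.0224). The adaptors Dok1 and Gab1 differed by 0.12 (adjusted p = 0.331) and 0.18 (adjusted p = 0.414).

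Among 6 other PI3K subunits and lipid phosphatases, Pik3c2a fell and 5 did not pass. It encodes a class II PI3K, which makes a different lipid and binds no p85. Its values were 8.32, 8.08 and 8.66 in ND and 7.90, 7.54, 7.51 and 7.76 in HFD, a difference of −0.68 (standard error 0.15, adjusted p = 0.0338). Its dimmer probe set had the same sign (−0.24, adjusted p over all probe sets = 0.236). The regulatory subunits Pik3r3 (−0.23, adjusted p = 0.238) and Pik3r2 (−0.18, adjusted p = 0.323) did not pass.

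In the Akt branch, Gsk3b fell and 8 of 9 genes did not pass. Gsk3b is a kinase that Akt inhibits. It was at 10.50, 10.50 and 10.76 in ND and 10.16, 10.20, 10.14 and 10.08 in HFD (−0.44, standard error 0.09, adjusted p = 0.0278), and ND 4, at 10.07, was below every HFD array. Its second probe set differed by −0.33 and the other two by −0.05 each. Foxo3 and Foxo1 encode transcription factors that Akt keeps out of the nucleus. They differed by −0.30 (adjusted p = 0.0684) and −0.24 (adjusted p = 0.174), both without overlap of the diets. Pdpk1, the kinase that phosphorylates Akt, differed by −0.24 (adjusted p = 0.283), and its dimmer probe set was lower by 0.51 on the log2 scale (adjusted p over all probe sets = 0.0344). Of 8 genes of the mTOR branch 0 passed, with Mtor at 0.19 (adjusted p = 0.181), its activator Rheb at 0.23 (adjusted p = 0.286) and Rptor at −0.15 (adjusted p = 0.434).

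Of the 5 genes of the leptin JAK-STAT branch 1 rose, 1 fell and 3 did not pass. Ptpn11, the phosphatase SHP2 that binds the leptin receptor and the insulin receptor substrates, rose. It was at 8.81, 8.78 and 8.67 in ND and 9.17, 9.18, 9.06 and 9.33 in HFD (0.43, standard error 0.09, adjusted p = 0.0327), while its dimmer probe set differed by −0.06. Stat5a, a transcription factor downstream of several cytokine receptors, fell from 11.87, 11.83 and 12.08 in ND to 11.59, 11.62, 11.51 and 11.30 in HFD (−0.42, adjusted p = 0.0352), and its other probe set differed by −0.03. Jak2 was at 7.74, 7.59 and 7.58 in ND and 8.10, 7.94, 7.88 and 8.04 in HFD, without overlap, but did not pass (0.35, adjusted p = 0.053). Its dimmer probe set differed by 0.35 as well. Stat5b did not pass by its main probe set (adjusted p = 0.989), while a dimmer one was higher by 0.60 (adjusted p over all probe sets = 0.039).

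Of 5 brakes on the receptors 0 passed. Socs1 differed by −0.27 (adjusted p = 0.0928), Socs3, which blocks leptin and insulin receptors, by 0.18 (adjusted p = 0.359), and the phosphatase gene Ptpn1 by 0.09 (adjusted p = 0.655). Among 10 other IGF binding proteins and genes of their cleavage 0 passed. Igfbp2 was at 11.06, 11.25 and 11.05 in ND and 11.94, 11.55, 11.14 and 11.90 in HFD, with HFD 3 inside the ND range (0.51, adjusted p = 0.103). Igfbp6, which prefers IGF-2, differed by 0.31 (adjusted p = 0.209), and the protease gene Pappa2 by 0.08 (adjusted p = 0.496).

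Of 11 genes known to respond to FoxO factors 1 fell, 0 rose and 10 did not pass, with 5 differences positive and 5 negative. Bcl6, a transcriptional repressor, fell from 10.56, 10.42 and 10.70 in ND to 10.01, 10.28, 9.93 and 9.78 in HFD (−0.56, standard error 0.12, adjusted p = 0.033), but its dimmer probe set differed by −0.05. Cited2 differed by 0.42 (adjusted p = 0.146) and the cell cycle inhibitor Cdkn1b by −0.22 (adjusted p = 0.159). The dimmer Cdkn1b probe set had the opposite sign, at 8.79, 8.89 and 8.66 in ND and 9.16, 9.41, 9.28 and 9.37 in HFD (0.53, adjusted p over all probe sets = 0.026). Leaving out ND 3, HFD 3 or HFD 4, or adding ND 4, left 0 of the 5 calls in the wider list, with 12 to 14 of the 71 genes at an unadjusted p under 0.05 in limma. Without HFD 2 Bcl6 alone passed, and without ND 1 the genes past the threshold were Gsk3b, Ptpn11 and Stat5a. Without ND 2, Ptpn11 and Stat5a did not pass and Gab2 did.

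**Figure D4:**
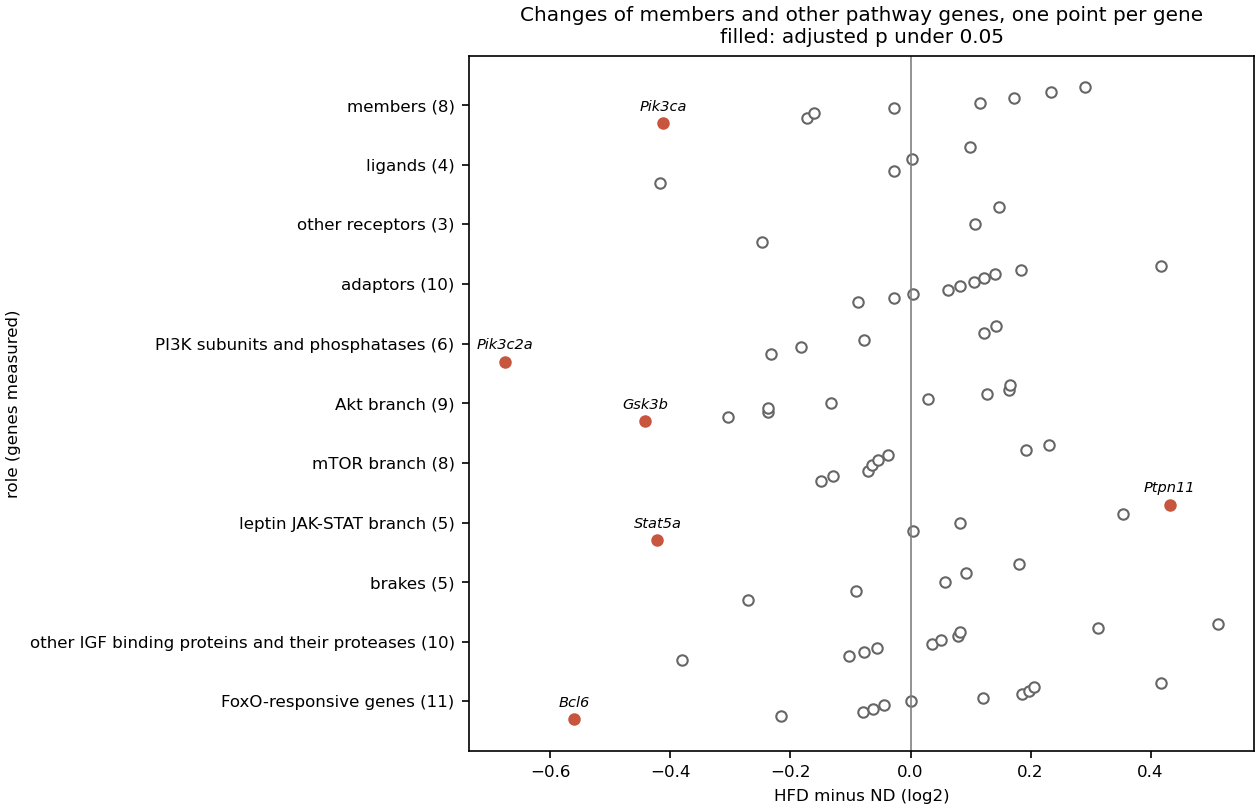
HFD minus ND on the log2 scale for the 8 measured members and the 71 other measured pathway genes, one point per gene, grouped by role with the number of genes measured in parentheses. Filled and named points passed at an adjusted p under 0.05, and these are Pik3ca among the members and Pik3c2a, Gsk3b, Stat5a and Bcl6 (lower) and Ptpn11 (higher) in the other roles.

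The identity of the cells and the quality of their RNA were read from the same arrays. Of 8 fibroblast markers Lum fell (−0.34, adjusted p = 0.0358), none rose, and their mean was 11.40 to 11.43 in ND and 11.36 to 11.45 in HFD. Cd34 of the sort was bright (12.08 and 12.10), but the Pdgfra probe set was dim (5.92 and 6.27). Every HFD array was above every ND array for Pdgfra (0.34, adjusted p = 0.103), where 17.9% of all genes had no overlap. All 9 keratinocyte markers measured had a higher mean in HFD, by a median of 0.47, with 0 past the threshold. The largest differences were 1.41 for Dsp (adjusted p = 0.205) and 1.14 for Krt1 (adjusted p = 0.189). List means were 6.56 to 7.12 in ND and 6.62 to 8.02 in HFD. HFD 1, at 6.62, was below ND 1 (7.12) and ND 3 (6.91), and the excluded ND 4 was at 7.46. Epcam was dim in both diets (5.23 and 5.27). The part of the keratinocyte markers in the Pik3ca result was not tested beyond a fit with their mean as a covariate, which gave −0.48 (adjusted p = 0.103). Of the endothelial (7 genes measured), mural (6), leukocyte (7), adipocyte (5) and glial and melanocyte (5) markers 0 passed. In that order 3, 4, 2, 1 and 2 of them were brighter than the median gene (6.77). Adipoq (4.41 and 4.40) and Ptprc (4.08 and 4.03) were near the bottom of the scale, whose lowest value is 3.56. The leukocyte markers Cd68 (8.98 and 8.96) and Cd74 (8.22 and 8.10) and the adipocyte marker Lipe (6.85 and 6.74) were not. Less RNA of a gene per cell and fewer cells that express it cannot be told apart in such samples.

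Control probe sets at both ends of Gapdh and Actb gave a 3′ minus 5′ difference, a sign of RNA quality, of −0.29, −0.34 and −0.18 in ND 1, 2 and 3 and −0.40, −0.44, −0.38 and −0.44 in HFD 1 to 4, with the excluded ND 4 at −0.37. It separated the diets compared, with ND 3 at the far end (p = 0.0286 by an exact permutation test, two-sided, the lowest value possible with 35 splits). With it as a covariate the Pik3ca change was −0.20 (adjusted p = 0.999), and 0 of 17097 genes passed in limma, with 604 at an unadjusted p under 0.05. Since the arrays of the diets compared do not overlap in this measure, such a fit cannot tell RNA quality and diet apart.

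**Figure D5:**
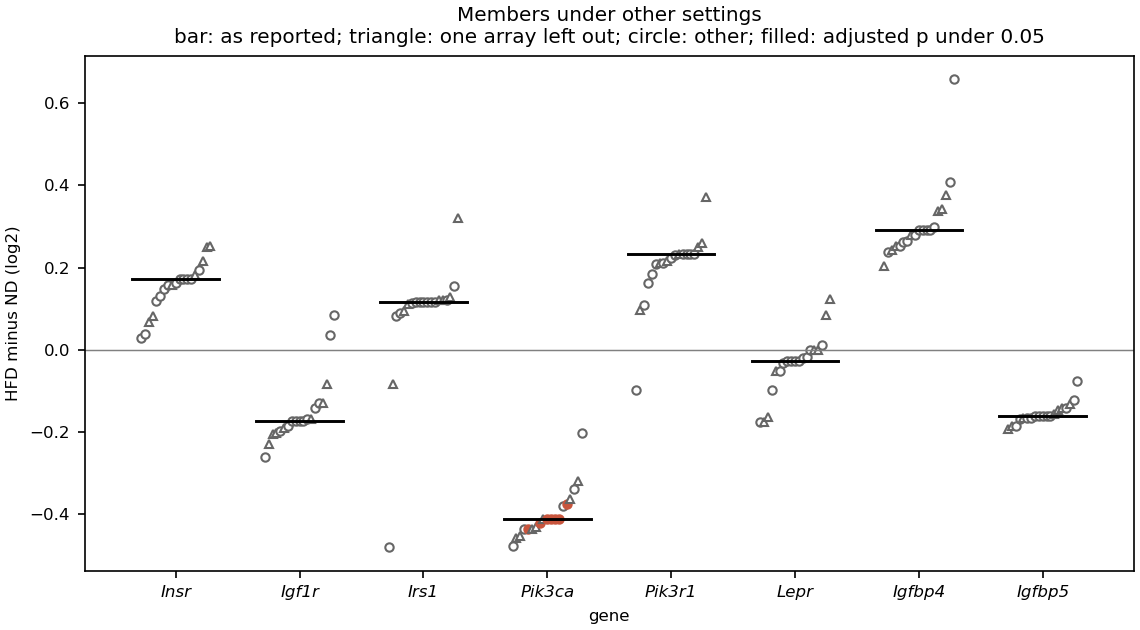
HFD minus ND on the log2 scale for each member as reported (bar) and under 19 other settings (triangles for each array left out, circles for the rest), filled where the adjusted p was under 0.05. Only Pik3ca has filled points, in 7 of the 19 settings, and its values stay below 0 throughout (−0.48 to −0.20), whereas points of Igf1r, Irs1, Pik3r1 and Lepr cross 0. Settings that alter only the variance model or the genes adjusted over repeat the value of the bar.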

How the data were processed

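Log2 expression values of 45141 probe sets on 8 arrays were deposited. The authors made them with RMA and the affy package, per the submitters' processing notes. Their versions are not given in the sources used here. Values run from 3.56 to 13.5, and the quartiles of the arrays lie within 0.04 of each other, so a change in total RNA per cell would not be visible. They were used without further scaling. Precision is limited by the number of arrays.

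Of these, 28898 probe sets name 1 gene in the platform annotation, and 551 name several and were not used. Symbols of 28689 were taken by Entrez identifier from a GRCm38.p6 gene table, whether or not this changed them. The brightest probe set over the 7 arrays stood for each of 17097 genes. HFD 1 to 4 were compared with ND 1 to 3 in limma 3.58.1 (R 4.3.3; lmFit, eBayes with trend, 10.3 total degrees of freedom), adjusted by Benjamini-Hochberg at 0.05. Promoters are RefSeq sequences of GRCm38.p6. In 10 simulations with 200 changed genes of 17097, the fit recovered 95.2% of changes of 1 log2 and 64.8% of changes of 0.5, with 4.9% false calls. Whether these rates hold for the deposited arrays was not tested. There the count of genes past the threshold went from 914 to 6 without HFD 3.

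The members, lists, tests and settings were chosen with earlier results of these data known. Named are all members, and of the other pathway genes those past the threshold and up to 3 per role with the smallest p. Outside this rule are Igfbp3 and Stc2, and also Pdpk1 and Stat5b, each of which has a dimmer probe set past the threshold over all probe sets. Other settings were all 8 arrays, each array left out, the specimen number as a block, other probe set rules, a brighter gene set, other normalization, variance models and array weights, 2 covariates, and a threshold of 0.1. Counts of probe sets by sign with arrays left out were added after seeing the data. Figures were drawn with matplotlib 3.10.9.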

Additional observations from a re-analysis of the deposited data

How the results depend on the processing

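Of 152 values of the members under other settings, 142 kept their sign, and 2 were 0, those of Lepr without ND 3 or without HFD 2. Some settings alter only the variance model or the genes adjusted over, which leaves a change as it was. Nor could the mean of probe sets alter Irs1 or Igfbp5, with 1 probe set each. The 142 therefore include values that could not have changed sign. The change of Igf1r turned to 0.084 with the mean of its probe sets and 0.035 with the 3′ minus 5′ covariate, that of Irs1 to −0.085 without ND 3 (up to 0.320 with another array left out) and −0.482 with that covariate, that of Pik3r1 to −0.10 with it, and that of Lepr to 0.085 without ND 1, 0.123 without HFD 3 and 0.012 with the mean of probe sets. None of these had passed the threshold. The count of members past it was 1 as reported. It was 0 with all 8 arrays, the specimen number as a block, the mean of probe sets and either covariate, and 0 with any 1 array left out, with 1 to 3 members at an unadjusted p under 0.05 in these limma fits. The other pathway genes past the threshold numbered 5 as reported, 0 to 6 with 1 array left out, 0 with all 8 arrays, the block or either covariate, 2 with the mean of probe sets, 9 without the dimmer genes and 10 at an adjusted p under 0.1. At an unadjusted p under 0.05 the counts of 0 corresponded to 2 genes with the 3′ minus 5′ covariate and 12 to 14 otherwise. Over all genes the count was 914 as reported. It was 6 to 1072 with 1 array left out, lowest without HFD 3 (6), HFD 4 (9) and ND 3 (11). It was 6 with all 8 arrays, 400 with the mean of probe sets, 1387 without the dimmer genes, 19 with the keratinocyte covariate, 0 with the 3′ minus 5′ covariate and 1947 at 0.1. Arrays with the same specimen number did not deviate together (correlations of −0.18, −0.29 and −0.05). So few values cannot decide whether the numbers pair mice. In the replicate block HFD 4 has no ND partner, since ND 4 is excluded, so each member changed as it did without HFD 4. That block left 1 gene past the threshold in limma and gave −0.44 for Pik3ca (adjusted p = 0.194). The causes of these differences were not tested.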

Other observations

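Igfbp3, the main carrier of IGFs in blood and a gene of the wider list, was singled out after its values were seen. Its 1 probe set was at 8.19, 8.18 and 6.38 in ND 1, 2 and 3, at 6.12, 8.06, 8.23 and 6.40 in HFD 1 to 4 and at 7.23 in the excluded ND 4. Arrays of both diets were thus found above 8 and below 6.5, and the diets differed by −0.38 (standard error 0.58, adjusted p = 0.767). The SD within diets was 1.07, and 7 of 28898 single-gene probe sets had a larger one, where the median was 0.11. Igfbp4 probe set 1437405_PM_a_at, with an SD of 0.84, was exceeded by 18. ND 3 was low for both, whereas HFD 1 and HFD 4, also low for Igfbp3, were the highest arrays for that Igfbp4 probe set.

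Stc2, which encodes an inhibitor of the Pappa protease that cleaves Igfbp4 and was also chosen after its values were seen, spread widely in ND, at 8.25, 7.31 and 6.70, and less in HFD, at 7.61, 7.28, 7.33 and 7.79. The diets differed by 0.08 (adjusted p = 0.909). The dimmer pair of Stc2 probe sets gave differences of 0.39 and 0.25 (adjusted p over all probe sets = 0.243 and 0.251).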
